A study of Mus musculus with 6 samples.

Results

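The HoxC cluster genes are the 9 homeobox genes Hoxc4, Hoxc5, Hoxc6, Hoxc8, Hoxc9, Hoxc10, Hoxc11, Hoxc12 and Hoxc13. They were taken by gene symbol from the platform annotation, out of 19057 named genes, which gave 11 of the 45281 probes, with a pair of probes each for Hoxc10 and Hoxc11 and a single probe for every other member. RNA from mouse embryonic fibroblasts (MEFs) was hybridized to Illumina expression BeadChips, and the question was how the RNA of these genes differs when DNA methylation is severely reduced. The tested cells were Dnmt1-/- MEFs (n = 3 arrays), compared with Dnmt1+/+ MEFs (n = 3 arrays). Dnmt1 encodes the enzyme that copies DNA methylation onto newly made strands. The mutant cells are homozygous for a hypomorphic Dnmt1 allele, as the study's methods state. Cells of both groups are also Trp53-/-, and their background strain is given as unknown. As far as the sources say, each genotype was 1 cell line, and genotype cannot be told apart from line. The labels do not give separate cultures, so all p-values measure the spread between arrays, which may be technical. DNA methylation was not measured on these arrays.

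Hox genes encode homeodomain transcription factors that lie in 4 clusters in mammals and specify position along the body axis and the limb. Within a cluster, genes at one end (low paralogue numbers) are used early and towards the head, and genes at the other end (high numbers) later and towards the tail. A fibroblast tends to keep the Hox set of the body site it came from. Silent Hox genes are classic targets of Polycomb repressive complexes, and PRC2 marks them with methylated histone H3 (H3K27me3).

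In the RefSeq annotation of GRCm38.p6, the 9 genes lie on chromosome 15, at chr15:102921131-103036856, a span of 115.726 kb. Hoxc13 comes first in this coordinate order and Hoxc4 last. Hoxc10 (chr15:102966796-102971898) is followed by Hoxc9 (chr15:102977032-102984444), Hoxc8 (chr15:102990539-102994275) and Hoxc6 (chr15:102998226-103011882). The same span holds or overlaps 6 other annotated genes, the non-coding Hotair, Mir196a-2, Gm36878, Gm29905, Mir615 and Gm30528, for which the platform annotation gave 0 probes. The microRNAs are shown because Mir196a-2 lies between the 2 members that rose and Mir615 inside Hoxc5, and neither was measured here. In the mature RNAs below, given 5′ to 3′ as in RefSeq, capitals mark the seed (bases 2 to 8), which pairs with target RNAs.
mmu-miR-196a-5p: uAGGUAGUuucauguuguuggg
mmu-miR-615-3p: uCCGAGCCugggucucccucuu
miR-196a-5p, a microRNA family known for targeting Hox mRNAs, lies between Hoxc10 and Hoxc9 at chr15:102973365-102973386. miR-615-3p lies inside the annotated Hoxc5 gene at chr15:103014969-103014990.

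The arrays were similar in probe number but not in brightness. Mean raw signal was 397, 259 and 217 on Dnmt1-/- replicates 1 to 3, and 357, 356 and 326 on Dnmt1+/+ replicates 1 to 3. Between 14699 and 16499 probes were above background on the Dnmt1-/- arrays and between 15046 and 15783 on the Dnmt1+/+ arrays, where above background means a detection p under 0.01 against the negative control beads. The Dnmt1 probe had raw signals of 514, 176 and 177 in Dnmt1-/- MEFs and 1125, 1076 and 795 in Dnmt1+/+ MEFs, and its normalized signal in Dnmt1-/- MEFs was 4.31-fold lower (limma adjusted p = 0.0019). Of 12 fibroblast markers, 7 exceeded background on every Dnmt1-/- array and 9 on every Dnmt1+/+ array, and the other lists of cell type markers were mostly dark (5 of 9 epithelial, 4 of 6 blood, 5 of 6 endothelial, 5 of 6 neural and 3 of 5 skeletal muscle markers were above background on 0 arrays). The fibroblast markers Fap and Postn were above background on 0 arrays. Of 9 tested fibroblast markers, S100a4 rose (2.98-fold, limma adjusted p = 0.0301) and Thy1 fell (at least 2.11-fold, limma adjusted p = 0.00318). Thy1 was above background on 0 Dnmt1-/- arrays, so it passed the filter only through the Dnmt1+/+ arrays. Among the other lists, Krt14 (epithelial) and Cd53 (blood) rose, and Krt19 (epithelial) and Map2 (neural) fell. The summed raw signal of the neural list was 554 to 680 on the Dnmt1-/- arrays and 791 to 966 on the Dnmt1+/+ arrays. Map2, the only neural marker above background on any array, had mean raw signals of 109 and 341 in these groups. The part of other cell types in the results was not tested.

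The data show Hoxc10, and less firmly Hoxc9, higher in Dnmt1-/- MEFs. Hoxc6 was well expressed in both groups with overlapping values, and the remaining 6 members were at or near background in both groups. Hoxc10 was at least 7.56-fold and at least 10.4-fold higher by its 2 probes on the normalized scale, against 3.37-fold and 4.35-fold on the authors' processed values. Hoxc9 was 3.26-fold higher, a call that was lost under 9 of 16 other settings. Of the 11 probes, 4 passed the filter for testing (above background on at least 3 of 6 arrays). Of these, 3 probes of 2 genes rose and 0 fell, where all 15795 tested probes gave 8.48% that rose and 7.69% that fell. Counted as genes, 2 of 3 tested members rose, against 9.61% of the 8716 tested genes that rose and 7.82% that fell. Only 3 members entered this count, and what they show is given gene by gene. In bulk RNA, more cells expressing a gene and more RNA per expressing cell cannot be told apart.

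**Figure D1:**
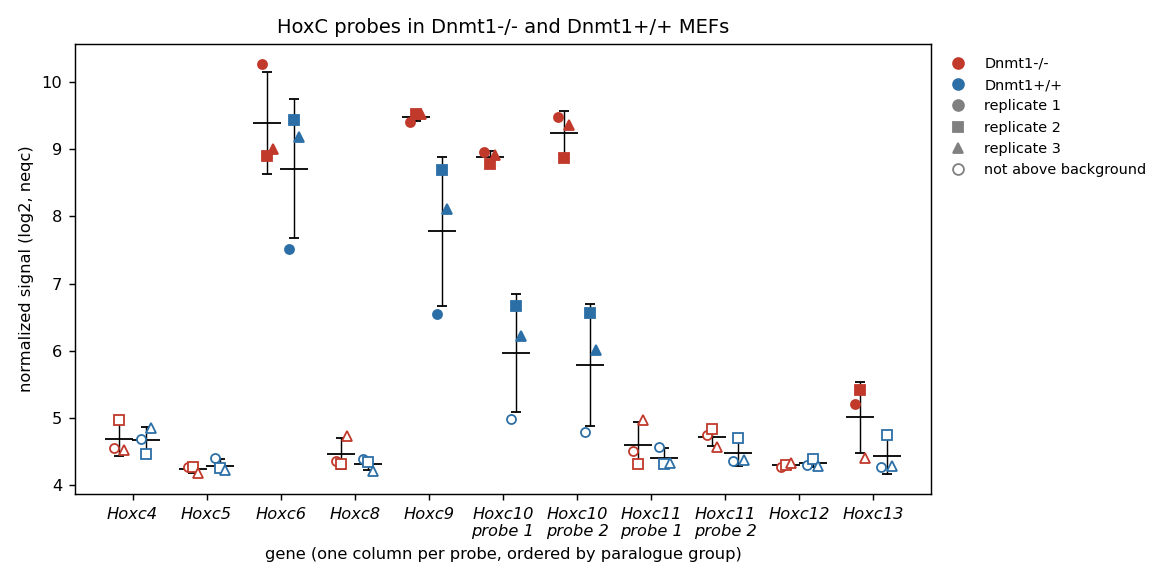
Normalized signal (log2) of the 11 HoxC probes on each array, ordered by paralogue group, with Dnmt1-/- arrays left of Dnmt1+/+ arrays, bars giving mean and SD (n = 3 arrays) and open symbols marking arrays where a probe was not above background. Hoxc10 lies between 8.78 and 9.49 in Dnmt1-/- MEFs and between 4.79 and 6.67 in Dnmt1+/+ MEFs, Hoxc6 overlaps between the groups, and Hoxc4, Hoxc5, Hoxc8, Hoxc11 and Hoxc12 stay below 5 on every array.

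Hoxc10, a posterior member that helps to pattern the lumbar spine and the hindlimb, showed the clearest difference in the cluster. Its first probe (ILMN_2836885) had raw signals of 808, 387 and 346 in Dnmt1-/- MEFs, and 119, 200 and 164 in Dnmt1+/+ MEFs. Every Dnmt1-/- array was above every Dnmt1+/+ array, also on the 2 dimmer Dnmt1-/- arrays. After normalization, which removes background and scales the arrays to each other on a log2 scale, this probe averaged 8.88 ± 0.09 in Dnmt1-/- MEFs and 5.96 ± 0.88 in Dnmt1+/+ MEFs (SD, n = 3 each). The difference was 2.92 (SE 0.38, 95% CI 2.05 to 3.80, limma adjusted p = 0.00179).

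The second Hoxc10 probe (ILMN_2836888) had raw signals of 1098, 408 and 444 in Dnmt1-/- MEFs, and 115, 192 and 153 in Dnmt1+/+ MEFs. It gave the same order of arrays within the Dnmt1+/+ group, with replicate 1 lowest and replicate 2 highest. Its normalized signal averaged 9.24 ± 0.32 in Dnmt1-/- MEFs and 5.79 ± 0.91 in Dnmt1+/+ MEFs (SD, n = 3 each), a difference of 3.45 (SE 0.41, 95% CI 2.50 to 4.40, limma adjusted p = 0.00112). Hoxc10 was not silent in Dnmt1+/+ MEFs. Both probes exceeded background on 3 of 3 Dnmt1-/- arrays and on 2 of 3 Dnmt1+/+ arrays, and on Dnmt1+/+ replicate 1 their detection p was 0.011 and 0.027. With that array set no lower than the dimmest detected probe, Hoxc10 was at least 7.56-fold and at least 10.4-fold higher in Dnmt1-/- MEFs. Without background correction the folds were 3.58 and 4.64, and both probes passed the test there and on the authors' processed values.

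Hoxc9, which acts in the thoracic region of the axis and in the choice of motor neuron type, was above background on all 6 arrays. Its raw signals were 1052, 595 and 489 in Dnmt1-/- MEFs, and 183, 558 and 370 in Dnmt1+/+ MEFs. The raw signals overlap, since the lowest Dnmt1-/- value lies under the highest Dnmt1+/+ value. The normalized values were 9.41, 9.52 and 9.52 in Dnmt1-/- MEFs, against 6.54, 8.69 and 8.11 in Dnmt1+/+ MEFs, and these do not overlap. The 3 Dnmt1-/- arrays were nearly equal, with a mean of 9.49 ± 0.06 in Dnmt1-/- MEFs and of 7.78 ± 1.11 in Dnmt1+/+ MEFs (SD, n = 3 each). Among all 15795 tested probes, 16.6% had every Dnmt1-/- array above every Dnmt1+/+ array, as did the Hoxc9 probe and both Hoxc10 probes. Hoxc9 was higher by 1.71 (SE 0.47, 95% CI 0.63 to 2.78, limma adjusted p = 0.0425). This call lies close to the threshold and was lost under 9 of 16 other settings, with limma adjusted p of up to 0.184, while the difference kept its sign under all 16. The call was lost when Dnmt1+/+ replicate 3 or any one Dnmt1-/- replicate was left out (differences of 1.69 to 1.87), and the fold was 2.10 without Dnmt1+/+ replicate 1.

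Hoxc6, a member with a role around the level of the forelimb, was above background on all 6 arrays and varied widely in both groups. Its raw signals were 1766, 413 and 362 in Dnmt1-/- MEFs, and 284, 880 and 691 in Dnmt1+/+ MEFs. The highest and the lowest of these 6 values came from the first replicates of the 2 groups, and the other 4 arrays lay between them, with both Dnmt1-/- values under both Dnmt1+/+ values. On the normalized scale, Hoxc6 averaged 9.39 ± 0.76 in Dnmt1-/- MEFs and 8.71 ± 1.04 in Dnmt1+/+ MEFs (SD, n = 3 each). The difference of 0.67 did not pass (SE 0.54, 95% CI -0.56 to 1.91, limma adjusted p = 0.422). The interval includes 0 and also changes larger than the one seen for Hoxc9, so these arrays do not show whether Hoxc6 differed. Without Dnmt1+/+ replicate 1 the difference was 0.08, and with Dnmt1-/- replicate 1 as the only Dnmt1-/- array it was 1.55 (limma adjusted p = 0.182).

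The difference of Hoxc10 was set against those of the other tested members within each array. The difference between the groups was 2.78 larger for Hoxc10 (second probe) than for Hoxc6 on the log2 scale, and 1.74 larger than for Hoxc9. In both comparisons the 3 Dnmt1-/- arrays were separate from the 3 Dnmt1+/+ arrays, which gave a two-sided exact permutation p of 0.1 (0.15 after Benjamini-Hochberg adjustment over the 3 pairs), the smallest p that 3 against 3 arrays allow. For Hoxc9 against Hoxc6 the gap was 1.03 and the arrays overlapped (exact permutation p = 0.2, adjusted 0.2). These 3 comparisons were chosen after the values were seen.

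The tested members also varied together among the Dnmt1+/+ arrays. Dnmt1+/+ replicate 1 lay below the Dnmt1+/+ mean by 1.19 for Hoxc6, 1.24 for Hoxc9 and 0.98 and 1.00 for the Hoxc10 probes on the log2 scale. Dnmt1+/+ replicate 2 lay above it by 0.72, 0.91, 0.71 and 0.77 for the same probes, and Dnmt1+/+ replicate 3 by 0.47, 0.33, 0.27 and 0.23. All 4 probes, which stand for 3 genes, thus ordered the 3 arrays alike. A deviation as low as that of the first Hoxc10 probe on Dnmt1+/+ replicate 1 was seen for 70 of 15795 tested probes (0.443%). These 4 are included by construction, since the cutoff was the smallest of their deviations.

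This spread was large beside that of other probes. The SD of the 4 probes over the Dnmt1+/+ arrays was larger than that of 99.0% to 99.6% of tested probes, whose median SD was 0.19. Over the Dnmt1-/- arrays, the SD was larger than that of 5.86% of probes for Hoxc9, 11.3% and 65.6% for Hoxc10 and 96.8% for Hoxc6. Of the 16 tested HoxA, HoxB and HoxD genes, 1 (Hoxa7) lay as far below the Dnmt1+/+ mean on Dnmt1+/+ replicate 1, and that array was the lowest of its group for 6 of 16. On Dnmt1+/+ replicates 1 to 3 the mean raw signal was 357, 356 and 326 and the number of probes above background 15046, 15401 and 15783, and the part of these in the spread was not tested. The part that this array plays in each result is given by leaving it out: Hoxc10 was then higher in Dnmt1-/- MEFs by 5.29-fold and 7.52-fold (limma adjusted p = 0.00076 and 0.00101).

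**Figure D2:**
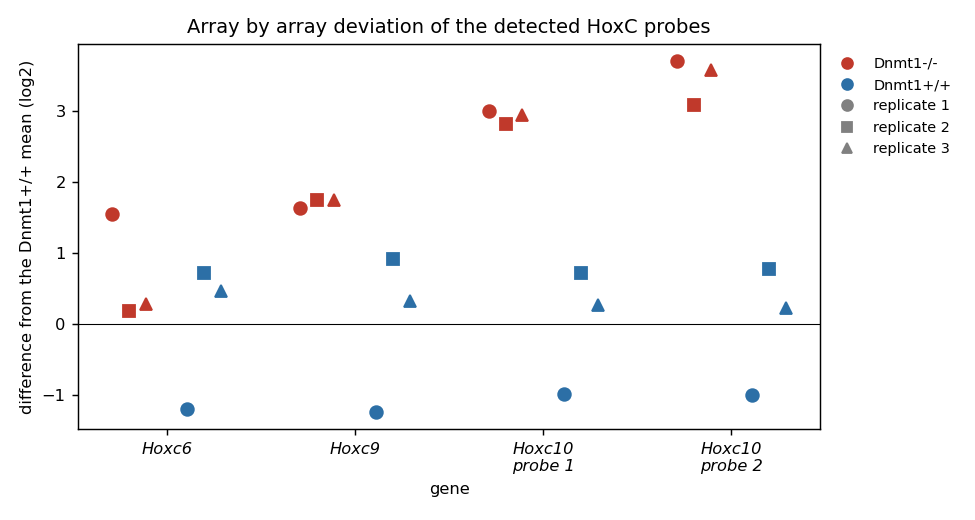
Difference of each array from the Dnmt1+/+ mean (log2) for the 4 tested HoxC probes, Dnmt1-/- arrays left of Dnmt1+/+ arrays, 1 symbol per array. Dnmt1+/+ replicate 1 lies about 1 below the mean for all 4 probes (0.98 to 1.24), while all Dnmt1-/- arrays lie 2.82 to 3.70 above it for Hoxc10.

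The 6 other members had 7 probes, none of which passed the filter. Their raw signals were 85.3 to 142 in Dnmt1-/- MEFs and 96.8 to 116 in Dnmt1+/+ MEFs, where the dimmest probe called above background had 102 to 125 on the Dnmt1-/- arrays and 115 to 120 on the Dnmt1+/+ arrays. Hoxc4 and Hoxc5, the members at the anterior end, had raw signals of 118, 108 and 96 (Hoxc4) and 106, 96 and 85 (Hoxc5) in Dnmt1-/- MEFs, and of 113, 109 and 115 (Hoxc4) and 107, 102 and 97 (Hoxc5) in Dnmt1+/+ MEFs. Neither was above background on any array. Hoxc8, which patterns the thoracic skeleton, had 110, 97 and 98 in Dnmt1-/- MEFs and 107, 106 and 97 in Dnmt1+/+ MEFs. It too was above background on 0 arrays, although it lies between Hoxc9 and Hoxc6, which were above background on all 6.

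At the posterior end, Hoxc11 and Hoxc12 were also above background on 0 arrays. Hoxc11 had raw signals of 116, 97 and 101 by its first probe in Dnmt1-/- MEFs, against 111, 105 and 103 in Dnmt1+/+ MEFs, and of 124, 106 and 96 by its second probe in Dnmt1-/- MEFs, against 106, 115 and 104 in Dnmt1+/+ MEFs. Hoxc12 had 106, 97 and 92 in Dnmt1-/- MEFs and 104, 108 and 101 in Dnmt1+/+ MEFs. A probe at background bounds the signal of that probe on these arrays and does not show that its RNA was absent.

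Hoxc13, which is known for its role in hair and nail formation, was the exception among the dim members. Its raw signals were 142, 115 and 94 in Dnmt1-/- MEFs, and 103, 116 and 101 in Dnmt1+/+ MEFs. It was above background on Dnmt1-/- replicates 1 and 2 but not on replicate 3, and on 0 of 3 Dnmt1+/+ arrays. When all 45281 probes were fitted with no filter, Hoxc13 was 0.58 higher in Dnmt1-/- MEFs (95% CI -0.13 to 1.29, limma adjusted p = 0.428), and the other dim probes differed by -0.05 to 0.24. Of the 7 dim probes, 0 passed in that limma fit (adjusted p 0.428 to 0.979) and 0 had an unadjusted p under 0.05, so no difference was detectable for these members. Of 10 hair keratin and hair follicle genes downstream of Hoxc13 that had a probe, 0 passed the filter.

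Detection by these probes was patchy along the chromosome, which need not be the pattern of the RNA. By mRNA-seq, the study reported sense-strand RNA across Hoxc4 to Hoxc10 in Dnmt1+/+ MEFs and across the whole cluster in Dnmt1-/- MEFs. It also reported higher RNA of selected Hox genes in Dnmt1-/- MEFs by RT-qPCR. Hox de-repression was reported too when DNA methylation was lowered in Dnmt1+/+ MEFs. On these arrays, Hoxc10, Hoxc9 and Hoxc6 were above background and Hoxc8 between them was not. Neither were the flanking Hoxc11 and Hoxc12 on one side and Hoxc5 and Hoxc4 on the other. Hoxc13, beyond Hoxc12, was above background on 2 Dnmt1-/- arrays and 0 Dnmt1+/+ arrays. Of the cluster, 2 of 11 probes (18.2%) were above background on all 6 arrays, against 28.2% of all probes, and 6 of 11 (54.5%) on 0 arrays, against 59.2% of all probes. Per array, 5, 5 and 4 of the 11 probes were above background in Dnmt1-/- MEFs and 2, 4 and 4 in Dnmt1+/+ MEFs. Among all probes the shares were 36.4%, 32.5% and 32.6% on the Dnmt1-/- arrays and 33.2%, 34.0% and 34.9% on the Dnmt1+/+ arrays.

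The genes whose normalized values over the 6 arrays were most like those of Hoxc10 (second probe) by Pearson correlation were Mrpl48 (r = 0.999), Tmc6 (0.996), Tmem62 (0.996), Lgals3 (0.995) and Wdr34 (0.995). These correlations describe 6 arrays in 2 groups, so a gene can rank high by differing between the groups alone, and no p is given. Among them Tmc6 was higher by 2.24 (limma adjusted p = 0.00106), while Mrpl48, a mitochondrial ribosomal protein gene, followed Hoxc10 from array to array with a difference of only 0.28 that did not pass (limma adjusted p = 0.225). Within the cluster, r with Hoxc10 was 0.932 for Hoxc9 and 0.641 for Hoxc6.

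**Figure D3:**
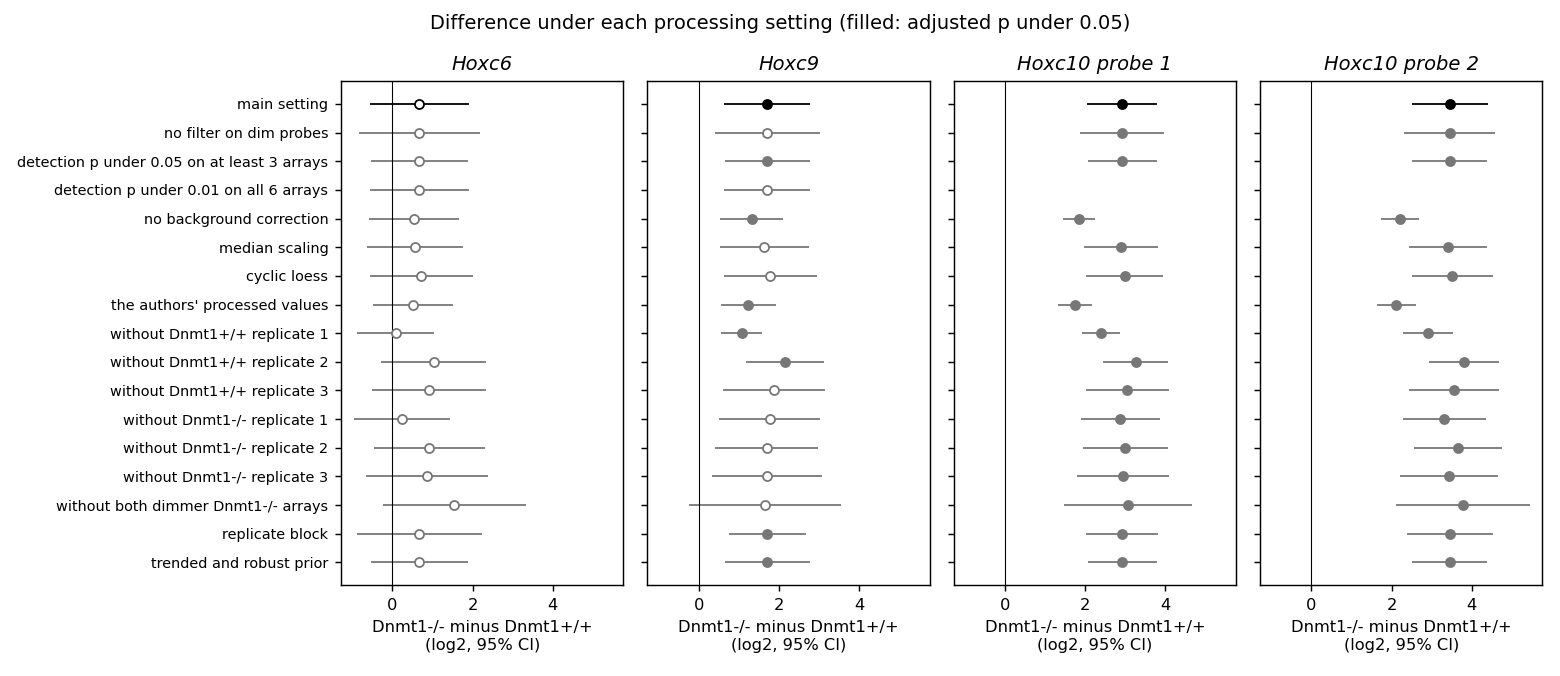
Difference of each tested HoxC probe, Dnmt1-/- minus Dnmt1+/+ (log2, 95% CI), under the setting used in the text (top) and each alternative, with filled symbols where limma adjusted p is under 0.05. Hoxc10 is filled under all 15 alternatives in which it was tested (1.75 to 3.26 for its first probe, 2.12 to 3.81 for its second), Hoxc9 under 7 of 16 and Hoxc6 under 0 of 16.

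Genes around the cluster were examined to see whether the difference was limited to the Hox genes. Within 500 kb of either end, 16 genes were tested, of which 4 rose, 0 fell in limma and 12 did not pass. The median difference of the 16 was 0.42 (all tested genes: -0.05). Of the 12, Smug1, Atp5g2, Copz1 and Zfp385a were higher at an unadjusted limma p under 0.05 (0.0085, 0.0193, 0.0262 and 0.0496), and 0 were lower. On the authors' processed values 7 of the 16 rose, and without background correction 6 rose. Under the other settings that tested all 16, 4 or 5 rose, and 0 fell under any setting. On chromosome 15 outside this window, 40 of 356 tested genes rose (11.2%). The nearest tested genes did not pass. Smug1, a uracil-DNA glycosylase gene 116 kb beyond Hoxc4, was 0.57 higher (limma adjusted p = 0.0512) and passed under 3 of 16 other settings, and Cbx5, the gene of the heterochromatin protein HP1 alpha at 155 kb, was 0.27 higher (limma adjusted p = 0.388). On the Hoxc13 side the nearest tested gene was Atp5g2, an ATP synthase subunit gene at 250.1 kb. It was 0.47 higher (limma adjusted p = 0.0854) and passed under 3 of 16 other settings.

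The genes that rose lay more than 400 kb away. Nckap1l, a gene of the actin-regulating WAVE complex that is known from blood cells, lies 417 kb beyond Hoxc4 and had raw signals of 1649, 646 and 555 in Dnmt1-/- MEFs and 105, 103 and 92.6 in Dnmt1+/+ MEFs. It was above background on 3 Dnmt1-/- arrays and 0 Dnmt1+/+ arrays and was higher by at least 30.3-fold (limma adjusted p = 1.23e-06). Of 6 blood markers, Cd53 and Csf1r were above background on 3 Dnmt1-/- arrays and 0 Dnmt1+/+ arrays, and Ptprc, Lyz2, Tyrobp and Laptm5 on 0 arrays. Cd53 rose, as Nckap1l did (at least 1.30-fold, limma adjusted p = 0.0176), with raw signals of 129, 119 and 107 in Dnmt1-/- MEFs and 108, 104 and 96.2 in Dnmt1+/+ MEFs, and Csf1r did not pass (limma adjusted p = 0.115). The summed raw signal of the 6 was 565 to 674 in Dnmt1-/- MEFs and 613 to 651 in Dnmt1+/+ MEFs. Background was not subtracted from these sums and 4 of the 6 markers were at background, so they cannot show whether blood cell RNA differed. The part of blood cell RNA in the result for Nckap1l was not tested.

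Pde1b, a calmodulin-dependent phosphodiesterase gene 466 kb beyond Hoxc4, had raw signals of 373, 152 and 158 in Dnmt1-/- MEFs and 106, 108 and 109 in Dnmt1+/+ MEFs and was at least 4.44-fold higher (limma adjusted p = 0.000252). Amhr2, the receptor gene of anti-Müllerian hormone 466 kb beyond Hoxc13, was higher by at least 2.86-fold in the mutant cells (limma adjusted p = 0.000874). Both were above background on 0 Dnmt1+/+ arrays, so, like Nckap1l, they passed the filter only through the group in which they were higher. Prr13, bright in both groups, was 2.80-fold higher (limma adjusted p = 0.000961). These 4 calls held under every other setting in which the gene was tested. The remaining 9 tested genes, Sp1, Pcbp2, Map3k12, Tarbp2, Atf7, Hnrnpa1, Copz1, Zfp385a and Itga5, did not pass, with differences of -0.16 to 0.50 by the brightest probe of each. Other tested probes of these genes differed by -0.30 (Map3k12) to 0.14 (Pcbp2) and did not pass either.

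**Figure D4:**
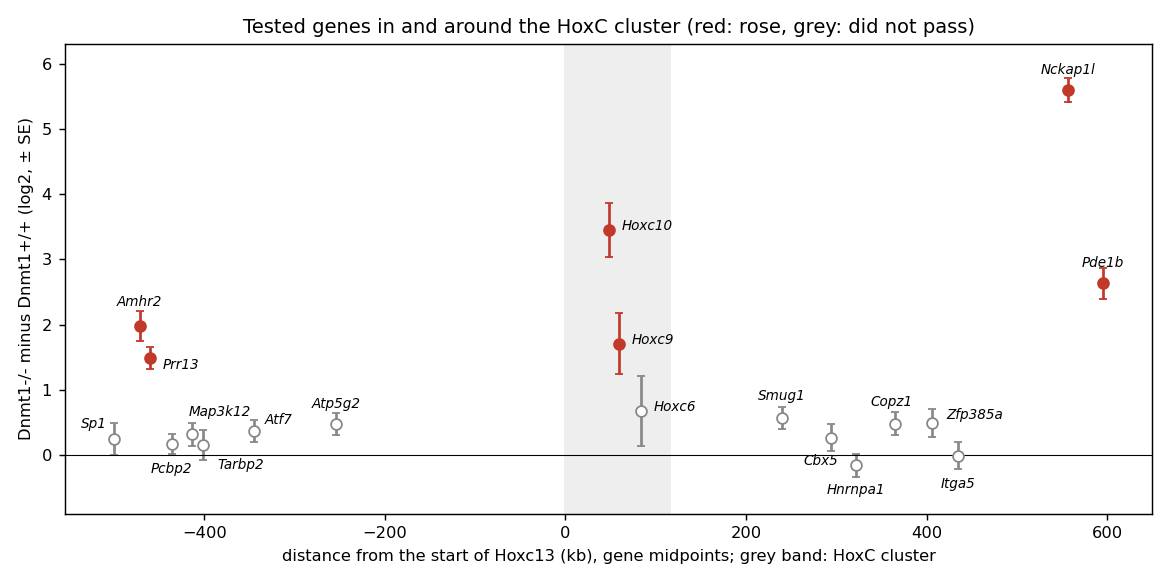
Difference (log2, ± SE) of each tested gene within 500 kb of the HoxC cluster, plotted by the distance of its midpoint from the start of Hoxc13 (kb), with the cluster as a grey band and genes that rose in red. Hoxc10 (3.45) and Hoxc9 (1.71) rose within the cluster, where no gene other than HoxC members had a probe. The nearest tested gene on each side, Smug1 at 116 kb (0.57) and Atp5g2 at 250.1 kb (0.47), was higher but did not pass. The other genes that rose (Amhr2, Prr13, Nckap1l and Pde1b) lie at the edges of the window.

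The same paralogue groups in the other Hox clusters did not move as one. Among group 9 genes, Hoxa9 rose (at least 2.20-fold, limma adjusted p = 0.000245), as Hoxc9 did, while Hoxb9 fell (at least 1.38-fold, limma adjusted p = 0.0109) and Hoxd9 fell (at least 1.24-fold, limma adjusted p = 0.0366). The Hoxa9 call held under all 15 other settings in which it was tested, the Hoxb9 call under 12 of 15 and the Hoxd9 call under 3 of 15. In group 10, Hoxd10 rose (at least 1.69-fold, limma adjusted p = 0.0127, held under 12 of 15), beside at least 7.56-fold and 10.4-fold for Hoxc10. In group 6, Hoxb6 fell by 1.26 (limma adjusted p = 0.0219, held under 12 of 16), and Hoxc6 was 0.67 higher and did not pass. In group 13, Hoxd13 rose (at least 2.46-fold, limma adjusted p = 0.000191, held under all 15), Hoxa13 was 0.51 higher and did not pass, and Hoxc13 was not tested. Hoxa9, Hoxd10 and Hoxd13 were above background on 0 Dnmt1+/+ arrays, and Hoxb9 and Hoxd9 on 0 Dnmt1-/- arrays, so each passed the filter only through the group in which it was higher.

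By cluster, 1 of 6 tested HoxA genes rose and 2 fell, 0 of 6 tested HoxB genes rose and 4 fell, and 2 of 4 tested HoxD genes rose and 1 fell, where 9.61% of all tested genes rose and 7.82% fell. Of these 10 calls, 7 were of genes that passed the filter through one group only. The median difference was -0.79 for HoxA, -1.11 for HoxB and 0.79 for HoxD, beside 1.71 for the 3 tested HoxC genes and -0.05 for all tested genes. The other genes that fell were Hoxa2 and Hoxb2 of group 2 (at least 2.16-fold and 2.61-fold, both held under all 15 settings, and both above background on 0 Dnmt1-/- arrays, so that they too passed the filter only through the group in which they were higher), Hoxb4 (at least 2.32-fold, held under 10 of 15) and Hoxa5 (by 0.96, held under 7 of 16).

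**Figure D5:**
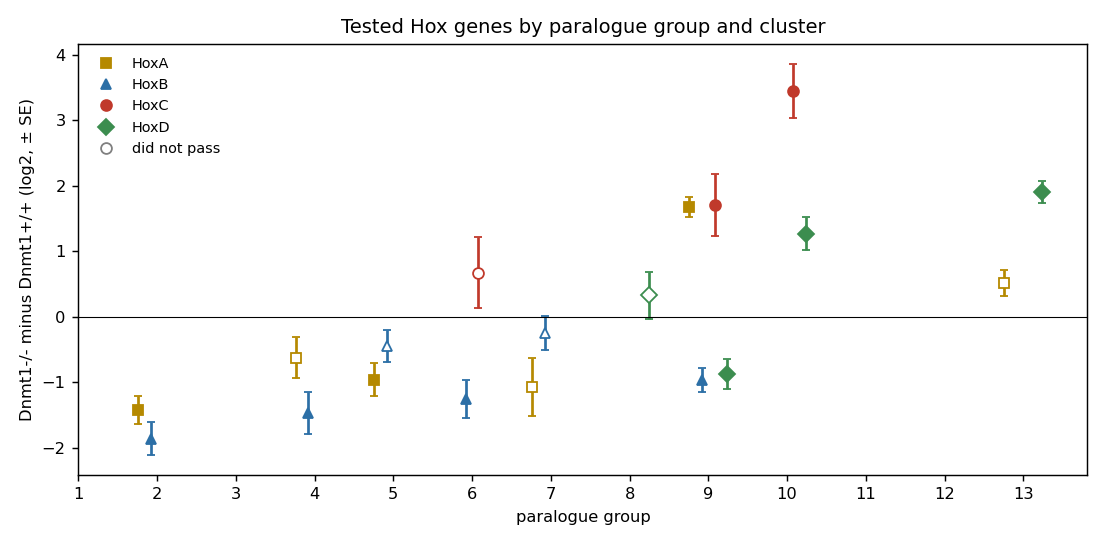
Difference (log2, ± SE) of each tested Hox gene, Dnmt1-/- minus Dnmt1+/+, by paralogue group and cluster, with open symbols for genes that did not pass. The 5 genes that rose (Hoxa9, Hoxc9, Hoxc10, Hoxd10 and Hoxd13) are of groups 9 to 13, where Hoxb9 and Hoxd9 fell, and the fall of Hoxd9 held under only 3 of 15 other settings. Hoxa9, Hoxd10 and Hoxd13 were above background on 0 Dnmt1+/+ arrays, and Hoxb9 and Hoxd9 on 0 Dnmt1-/- arrays. Each of these passed the filter only through the group in which it was higher.

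Genes that work with, induce or regulate Hox genes were counted in the same fit. Of 8 tested TALE homeobox genes (the Pbx, Meis and Pknox cofactors that bind DNA together with Hox proteins), 0 passed (limma; 1 had an unadjusted p under 0.05), with a median of 0.06. Of the inducers of the Hox code (Cdx, retinoic acid, Wnt and Fgf genes), 1 of the 12 with a probe was tested, the retinoic acid receptor gene Rarg, which rose 1.92-fold (limma adjusted p = 0.0339, held under 10 of 16 other settings). Of 19 limb and axial position genes, 4 were tested. Shox2, a limb skeletal regulator, fell 2.87-fold in Dnmt1-/- MEFs (limma adjusted p = 0.0019, held under all 16), and Tbx15 (-0.64), Gli3 (-0.44) and En1 (-0.34) did not pass. The limb identity genes Tbx4, Tbx5 and Pitx1 were among the 15 that were not tested.

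Regulators of Hox chromatin are given as counts. Of 11 tested trithorax and COMPASS genes, which maintain active Hox genes, 0 passed (limma; 2 had an unadjusted p under 0.05), with a median of -0.05. Of 9 tested PRC2 genes, Ezh1 rose (at least 1.33-fold, limma adjusted p = 0.0416) and Ezh2, which encodes the histone methyltransferase of PRC2 in dividing cells, fell 1.76-fold (limma adjusted p = 0.0308). These are RNA values. By immunoblot, the study reported that core PRC2 proteins and total H3K27me3 were not reduced in Dnmt1-/- MEFs. Ezh1 was above background on 0 Dnmt1+/+ arrays, so it passed the filter only through the Dnmt1-/- arrays. The Ezh1 call held under 4 of 15 other settings and the Ezh2 call under 11 of 16. Of 15 tested PRC1 genes, 0 rose and 3 fell: Pcgf6 by 0.98, Pcgf5 by 0.77 and Rybp by 0.56 (limma adjusted p = 0.0245, 0.019 and 0.0379), and these calls held under 11, 12 and 7 of 16 other settings. Among all tested genes 9.61% rose and 7.82% fell.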

How the data were processed

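The authors deposited a raw table with, for each probe and array, a mean bead intensity (linear scale, no background subtracted) and a detection p-value, and a table of processed intensity values for which the authors used lumi (its version is not given in the sources used here) with background subtraction, variance stabilization and robust spline normalization. The processed values are on a linear scale, and the step back from the transformed scale is not stated. From the raw intensity values, neqc of limma 3.58.1 (R 4.3.3) removed background, inferring the negative controls through the detection p-values, added an offset of 16, quantile normalized and took log2. Probes with detection p under 0.01 on at least 3 of 6 arrays were tested (15795 of 45281) in a two-sided lmFit and eBayes fit of group, with no covariate. P-values were adjusted over all tested probes (Benjamini-Hochberg). Rose and fell mean adjusted p under 0.05. For gene counts, the brightest tested probe on average stood for its gene.

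Where a probe was not above background on every array of its lower group, "at least" folds set each of those arrays to the higher of its own signal and the lowest detected signal there. Such folds are estimates and not lower confidence limits. Probe genes came from the platform annotation (34885 probes with 1 symbol, 18 with several, 10378 with none), and the 9 member identifiers matched RefSeq. The genes named were all members, Dnmt1, tested genes within 500 kb, up to 4 passing genes per list (every tested gene of lists with 6 or fewer) and the 5 genes most like Hoxc10. Members, lists and this rule were chosen with earlier results of these data known. Other genes (Hoxa7, Tbx4, Tbx5, Pitx1 and cell type markers) were named after their values were seen or by the marker lists. The steps were tested on simulated data. Trp53 and the authors' fold changes were not analysed here. The number of arrays (3 per group) limits the precision.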

Additional observations from a re-analysis of the deposited data

How the results depend on the processing

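Both Hoxc10 probes passed under all 15 alternatives in which they were tested, with differences of 1.75 to 3.26 (limma adjusted p up to 0.0314) and 2.12 to 3.81 (up to 0.0209). Hoxc6 passed under 0 of 16 (0.08 to 1.55, limma adjusted p 0.182 to 0.934). Hoxc9 no longer passed in limma with no filter on dim probes (1.71, adjusted p = 0.182), with detection required on all 6 arrays (1.71, adjusted p = 0.0533), with median scaling (1.64, adjusted p = 0.0588), with cyclic loess (1.79, adjusted p = 0.051) or without Dnmt1-/- replicates 2 and 3 (1.64, adjusted p = 0.184, the remaining array being assumed to vary like the Dnmt1+/+ arrays). Leaving out each array in turn gave 1.07 to 2.15 for Hoxc9 (limma adjusted p 0.0223 to 0.122), and the call was lost without Dnmt1+/+ replicate 3 and without each of Dnmt1-/- replicates 1 to 3. Without Dnmt1+/+ replicate 1 the Hoxc9 fold was 2.10, and without Dnmt1+/+ replicate 2 the Hoxc10 folds were 9.55 and 14.0.

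With detection required on all 6 arrays, 0 HoxC probes rose, since Hoxc10 was then not tested, and over all probes 719 rose and 663 fell. Leaving out each array in turn gave 2 to 3 HoxC probes that rose, and over all probes 714 to 1365 that rose and 454 to 1178 that fell, against 1339 and 1214 with every array. At detection p under 0.05, 9 HoxC probes were above background on at least 1 array, against 5 at 0.01 (45.5%, beside 40.8% of all probes). At 0.05, between 37.5% and 40.7% of all probes were above background on each single array. Their share on at least 1 array was not computed. When any tested probe could call a gene, 1 trithorax gene and 2 PRC2 genes fell and 1 PRC1 gene rose.

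With the replicate number as a block, Hoxc9 (limma adjusted p = 0.0489) and Hoxc10 (0.00768 and 0.00816) still passed, and over all probes 945 rose and 691 fell, against 1339 and 1214 without it. Same-numbered arrays of the groups deviated from their means with correlations of -0.23, 0.33 and -0.14, and other pairs of arrays with -0.44 to 0.43. These values gave no sign of a pairing by number, but 3 arrays per group cannot exclude one. Where a setting changed a call and its construction does not show why, the cause was not tested. The brightness of the probes relative to background limits the dim members, and 3 arrays per group of 1 line each limit all of them.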
